A study of Mus musculus with 6 samples.

Results

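Autophagy machinery genes were compared between NCU10K cells treated with control siRNA and with Nedd4 siRNA. They encode the proteins that start, build and close the autophagosome and load it with cargo. The set was a named list of 40 genes. Of these, 39 had a probeset that carried their symbol and no other, out of 19933 genes measured in this way, and each was read from whichever of its probesets was brightest on average. Optn was not analysed here. NCU10K is a single immortalized mouse neural crest cell line, grown as a bulk culture in DMEM with foetal calf serum. Both groups received siRNA with the transfection reagent RNAiMAX, either a low GC control siRNA or siRNA against Nedd4, and total RNA was taken after 48 h from 3 biological replicates per siRNA. No rescue of Nedd4 was part of these samples, and the methods and the design notes differ on the culture vessel, a well of a plate against a larger dish. Each of the 6 arrays was an Affymetrix Mouse Gene 1.0 ST array hybridised with cDNA from 300 ng of RNA.

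In autophagy, a double membrane grows around cytoplasm, closes to form the autophagosome and fuses with the lysosome, where the content is degraded. The ULK1 kinase complex starts the process when nutrient signals fall, and a class III PI3-kinase complex then marks the membrane with the lipid PI3P. WIPI proteins read that lipid, ATG9 and ATG2 proteins supply membrane, and a ubiquitin-like conjugation system attaches the ATG8 proteins (LC3 and GABARAP) to it. Cargo receptors such as p62 tie ubiquitinated proteins to ATG8. NEDD4, the protein that the siRNA targets, is a ubiquitin ligase.

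Nedd4 mRNA read 12.24, 12.35 and 12.34 on the control arrays and 10.45, 10.94 and 10.68 on the Nedd4 siRNA arrays (deposited log2 expression values, replicates 1 to 3 in order, as throughout). The log2 fold change, the mean of the Nedd4 siRNA arrays minus that of the control arrays, was −1.62 (SE 0.12, adjusted p = 3.16e-06 from limma); it is also called the log2 change. Array medians lay between 6.28 and 6.35, arrays of one group correlated at 0.9943 to 0.9972, and a probeset had a median residual SD of 0.117. Of 11 neural crest and Schwann lineage markers measured, Sox10, Erbb3, Foxd3, Tfap2a, Snai2 and Ets1 were lower by limma at an adjusted p below 0.05. Twist1 was higher, and by the methods' test (a one-factor comparison of the same values) 3 were lower and 0 higher. Of the 10 with a mean log2 value of at least 8, 60% were lower by limma, against 16.7% of all genes at that level. Beside the marker counts here and below, 9.62% of all 19933 genes were higher and 9.13% lower by limma. By the methods' test 4.79% of all genes were higher and 4.26% lower. The mean level of these 11 markers was 9.81 to 9.89 on the control arrays and 9.48 to 9.6 on the Nedd4 siRNA arrays. Of 6 fibroblast and pericyte markers, Pdgfra and Pdgfrb were higher, and the mean of the list moved from 7.85 to 7.97 up to 8.17 to 8.21. Of 4 macrophage markers, Cd68 was lower, from a mean of 8.31 to 6.34 (log2 change −1.97, adjusted p = 1.47e-06 from limma). Ptprc, Adgre1 and Csf1r had group means between 5.05 and 5.52. Of 4 neuronal markers Tubb3 was higher. None of 3 endothelial and 3 epithelial markers passed by limma or by the methods' test, or had an unadjusted p below 0.05 from limma. The mean levels of these last 4 lists lay between 5.05 and 6.17 on every array, below the array medians. The part of these marker shifts in the autophagy results was not tested, and in a bulk culture fewer cells of a type and less RNA per cell cannot be told apart.

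More autophagy machinery genes were higher than lower in cells treated with Nedd4 siRNA. The list was chosen with earlier results of these data known, so the shares below describe it and do not test it. By limma at an adjusted p below 0.05, 15 of the 39 genes changed (38.5%), 12 of them higher (30.8%) and 3 lower (7.69%). Over all 19933 genes, 18.7% changed, 9.62% being higher and 9.13% lower. Bright probesets pass the test more often, and 34 of the 39 genes had a mean log2 value of at least 8, a level chosen after the values were seen. Among those 34 genes 13 changed (38.2%), against 35.4% of all 7007 genes at that level, so the share that changed was near the background. The higher calls were 10 of the 34 (29.4%) against 18.7% of the genes at that level, and the lower calls were 3 of 34 (8.82%) against 16.7%. Centring each array on its median left 12 higher genes and 1 lower. Without Nedd4 siRNA replicate 1, 7 genes were higher and 1 lower, and 12.1% of all genes changed. The lower calls also came down to 1 gene, Atg4b, without control replicate 2 or without Nedd4 siRNA replicate 3.

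Every Nedd4 siRNA array lay above every control array for 20 of the 39 genes (51.3%), against 16.1% of all genes. Among the genes with a mean of at least 8, this held for 17 of 34 (50%), against 30.2%. Every Nedd4 siRNA array lay below every control array for 5 genes, against 15.6% of all genes, and the groups overlapped for 14. The median log2 fold change of the 39 genes was 0.200, beside −0.017 over all genes and 0.043 over genes with a mean of at least 8. Of the 39, 28 had a log2 fold change above 0 (71.8%), as did 45.4% of all genes and 55.4% of those with a mean of at least 8. Relative to the mean of the control arrays, the median of the 39 genes stood at −0.027, 0.080 and −0.030 on the control arrays and at 0.24, 0.18 and 0.15 on the Nedd4 siRNA arrays. The same median over all genes stayed between −0.033 and 0.010. The rise of the median was thus seen on each of the 3 Nedd4 siRNA arrays and was small beside the changes of single genes, which ran from −0.65 for Atg4b to 1.02 for Wipi2.

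**Figure D1:**
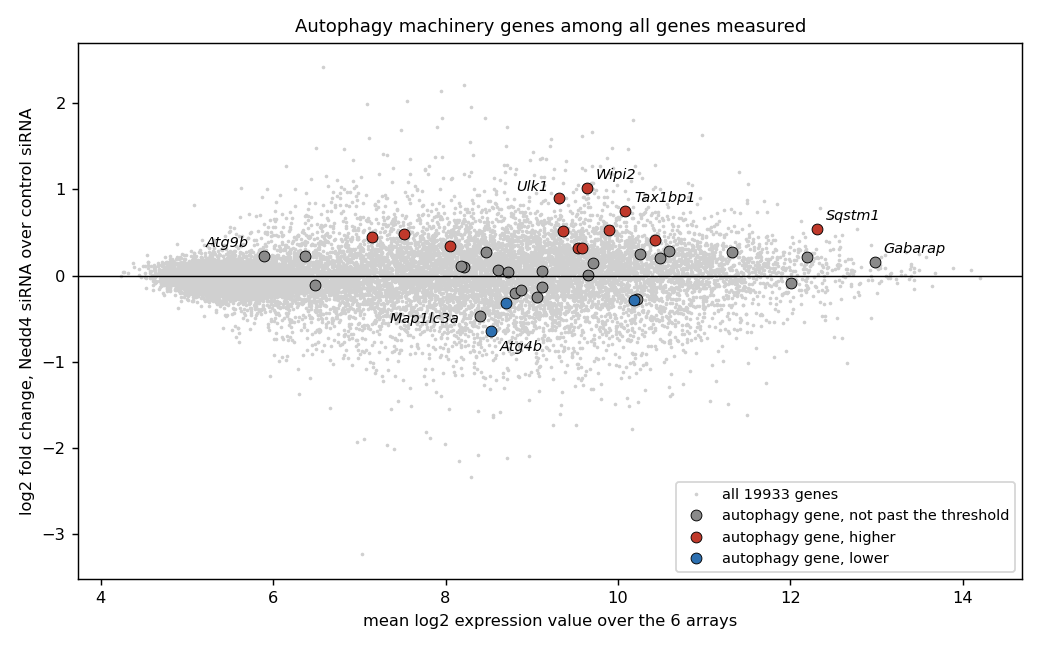
Log2 fold change (Nedd4 siRNA over control siRNA, vertical axis) against the mean log2 expression value over the 6 arrays (horizontal axis) for 19933 genes in grey and the 39 autophagy machinery genes as large points, red for higher, blue for lower and dark grey for not past the threshold. The red points, 12 in number, lie above 0 and reach 1.02 for Wipi2, and the lowest of the 3 blue points is Atg4b at −0.65.

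The ULK1 initiation complex changed at 4 of its 5 measured genes, 3 higher and 1 lower. All 5 had a mean of at least 8, a level at which 35.4% of all genes changed. The counts by role, here and below, rest on few genes, and the roles were not tested as sets. Ulk1 encodes the kinase that starts autophagosome formation. It read 8.73, 8.88 and 8.99 on the control arrays and 9.87, 9.79 and 9.65 on the Nedd4 siRNA arrays. This was a rise of 1.87-fold, with a log2 change of 0.90 (SE 0.099, adjusted p = 5.97e-05), and the nearest arrays of the groups were well apart. Ulk2, the gene of its close relative, read 9.6, 9.68 and 9.61 against 10.20, 10.17 and 10.12. Its log2 fold change was 0.53 (SE 0.084, adjusted p = 0.000763), a 1.45-fold rise with little spread within either group. Rb1cc1 encodes FIP200, the scaffold of the complex, and read 9.34, 9.37 and 9.43 against 9.67, 9.68 and 9.75. The groups did not overlap, and the log2 fold change was 0.32 (SE 0.084, adjusted p = 0.0195). The call was lost without control replicate 1 or without Nedd4 siRNA replicate 1 or 3.

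The other subunits of the complex went the other way or did not pass. Atg13, the adaptor that links the kinase to FIP200, read 10.38, 10.31 and 10.29 on the control arrays and 10.06, 10.07 and 10.00 after Nedd4 siRNA. Its log2 fold change was −0.28 (SE 0.084, adjusted p = 0.0362), a small fall without overlap. That call was lost without any 1 of the 6 arrays and with median centring (adjusted p = 0.0625). Atg101, which stabilises ATG13, read 8.43, 9.10 and 9.18 against 8.69, 8.82 and 8.59, so control replicate 1 stood below the rest of its group. The log2 fold change of Atg101 was −0.20 (SE 0.16, adjusted p = 0.538), and its value depended on which control arrays were used. It was −0.44 (adjusted p = 0.0132) without control replicate 1, −0.11 (adjusted p = 0.773) without control replicate 2 and −0.06 (adjusted p = 0.899) without control replicate 3.

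**Figure D2:**
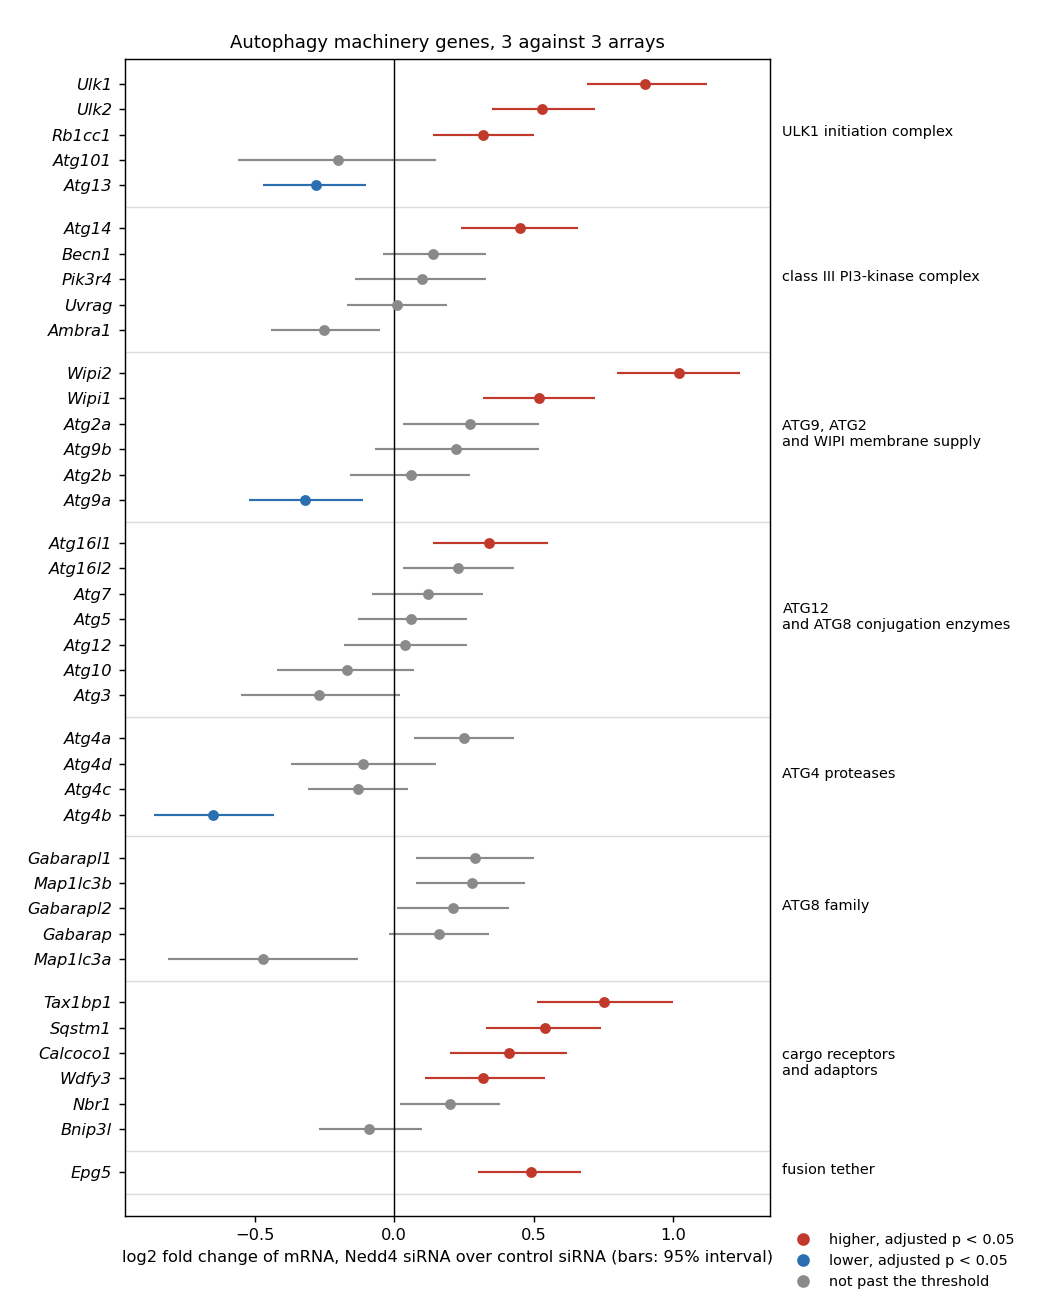
Log2 fold change of each of the 39 autophagy machinery genes (horizontal axis, Nedd4 siRNA over control siRNA, 3 arrays per group), grouped by role and ordered within a role, with bars for the 95% interval from limma. Of the 39 points, 28 lie right of 0, with Wipi2 at 1.02 and Ulk1 at 0.90 farthest right and Atg4b at −0.65 farthest left.

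Of the 5 genes of the class III PI3-kinase complex and its activators, only Atg14 changed. That was 20% of the 5, near the 18.7% of all genes that changed. ATG14 directs the kinase to the site where autophagosomes form. Atg14 read 6.91, 6.96 and 6.89 on the control arrays and 7.56, 7.25 and 7.30 on the Nedd4 siRNA arrays, where replicate 1 stood highest. The log2 fold change was 0.45 (SE 0.099, adjusted p = 0.00699), and without Nedd4 siRNA replicate 1 it was 0.35 (adjusted p = 0.0538). Becn1, which encodes the core subunit Beclin 1, read 9.57, 9.72 and 9.63 against 9.84, 9.76 and 9.75. Its groups were separate by a narrow gap, and the log2 fold change of 0.14 (95% interval −0.04 to 0.33) did not pass, at an adjusted p of 0.363. Ambra1, a Beclin 1 activator, read 9.09, 9.28 and 9.17 against 9.0, 8.93 and 8.87. Each Nedd4 siRNA array was below each control array, with a log2 change of −0.25 (adjusted p = 0.0904). Pik3r4, the regulatory subunit VPS15, had a log2 fold change of 0.10 (95% interval −0.14 to 0.33). Uvrag, a subunit of the complex at endosomes, had one of 0.01 (95% interval −0.17 to 0.19).

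The PI3P readers of the WIPI family carried the largest rise among the machinery genes. WIPI2 binds PI3P on the growing membrane and recruits the ATG16L1 conjugation complex. Wipi2 read 9.17, 9.28 and 8.93 on the control arrays and 10.15, 10.09 and 10.20 on the Nedd4 siRNA arrays. This was a 2.03-fold rise, with a log2 change of 1.02 (SE 0.10, adjusted p = 3.17e-05), several times the spread within either group. Wipi1, a related PI3P reader, read 8.99, 9.24 and 9.09 against 9.61, 9.61 and 9.66. Its log2 fold change was 0.52 (SE 0.092, adjusted p = 0.00172), and the Nedd4 siRNA arrays of Wipi1 lay close together above all controls.

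Of the 4 membrane supply genes, 1 fell and the others did not pass. Over all genes 9.13% were lower, and 16.7% of those with a mean of at least 8. Atg9a encodes a lipid scramblase carried on vesicles that seed the membrane, and it read 8.74, 8.97 and 8.86 against 8.55, 8.62 and 8.45. Its log2 fold change was −0.32 (SE 0.094, adjusted p = 0.0372), a fall without overlap. The Atg9a call was lost with median centring (adjusted p = 0.0722), and without control replicate 2 or 3 or Nedd4 siRNA replicate 1 or 3. Atg2a and Atg2b encode lipid transfer proteins that feed the membrane. Atg2a read 8.30, 8.53 and 8.16 against 8.67, 8.70 and 8.44, where the groups overlapped through 1 array of each, with a log2 change of 0.27 (95% interval 0.03 to 0.52, adjusted p = 0.139). Atg2a passed with array weights (adjusted p = 0.0455) and without control replicate 2 (adjusted p = 0.0434). Atg2b had a log2 fold change of 0.06 (95% interval −0.16 to 0.27). Atg9b, the second ATG9 gene, had means of 5.78 and 6.0, both below every array median, and its log2 fold change was 0.22 (adjusted p = 0.364).

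Most genes of the conjugation system did not pass the test, with 1 of 7 higher and none lower. Of the 6 with a mean of at least 8, 16.7% were higher, near the 18.7% of all genes at that level. Atg16l1 encodes the protein that places the conjugation complex on the membrane. It read 7.90, 8.0 and 7.73 on the control arrays and 8.24, 8.23 and 8.19 on the Nedd4 siRNA arrays. The groups were separate, with a log2 change of 0.34 (SE 0.093, adjusted p = 0.0236), a call that was lost without control replicate 3 or without any 1 of the Nedd4 siRNA arrays. Atg16l2, its less studied relative, read 6.33, 6.24 and 6.20 against 6.59, 6.47 and 6.40. These groups did not overlap either, and the log2 fold change of 0.23 did not pass (adjusted p = 0.118). Atg3, the enzyme that transfers ATG8 to lipid, read 10.20, 10.16 and 10.71 against 10.18, 10.03 and 10.06. Control replicate 3 stood above the other 5 arrays, and the log2 fold change of Atg3 was −0.27 (adjusted p = 0.241), or −0.09 (adjusted p = 0.689) without that array. For Atg7, the activating enzyme, the log2 fold change was 0.12 (95% interval −0.08 to 0.32), and for Atg10, which transfers ATG12, it was −0.17 (95% interval −0.42 to 0.07). ATG5 and ATG12 form the conjugate itself, and their genes had log2 fold changes of 0.06 (95% interval −0.13 to 0.26) and 0.04 (95% interval −0.18 to 0.26).

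The ATG4 proteases, which process ATG8 proteins before lipidation and release them afterwards, held the largest fall. Atg4b read 8.80, 8.99 and 8.77 on the control arrays and 8.12, 8.34 and 8.16 on the Nedd4 siRNA arrays. It fell 1.57-fold, a log2 change of −0.65 (SE 0.098, adjusted p = 0.000614), and the groups were clearly separate. Atg4a read 10.13, 10.19 and 10.06 against 10.38, 10.40 and 10.35, the opposite direction without overlap. The log2 fold change of Atg4a was 0.25 (adjusted p = 0.0667), and its second probeset gave 0.25 as well (adjusted p = 0.0655). Atg4a passed as higher under 6 alternatives, among them the methods' test (adjusted p = 0.0474) and quantile normalization (adjusted p = 0.0422). Atg4c read 9.18, 9.13 and 9.24 against 9.04, 9.05 and 9.06, with a log2 change of −0.13 (adjusted p = 0.386). Atg4d overlapped between the groups, with a log2 fold change of −0.11 (95% interval −0.37 to 0.15).

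None of the 5 genes of the ATG8 family passed by limma or by the methods' test. An unadjusted p below 0.05 from limma was seen for 4 of the 5. All 5 had a mean of at least 8, a level at which 3576 of all 7007 genes had such a p. Map1lc3b encodes LC3B, the ATG8 protein most used as a marker of autophagosomes. It read 11.06, 11.27 and 11.24 on the control arrays and 11.44, 11.51 and 11.45 on the Nedd4 siRNA arrays. The groups were separate, with a log2 change of 0.28 (SE 0.090, adjusted p = 0.0578), and the second probeset of Map1lc3b gave 0.26 (adjusted p = 0.0699). Gabarapl1 read 10.50, 10.55 and 10.28 against 10.75, 10.81 and 10.64, with a log2 change of 0.29 (adjusted p = 0.0676). Gabarapl2 read 12.09, 12.21 and 11.96 against 12.33, 12.29 and 12.28, with a log2 change of 0.21 (adjusted p = 0.160). Both therefore stood higher on every Nedd4 siRNA array without passing. A second, dimmer probeset of Gabarapl2 gave means of 6.25 and 6.18, a log2 change of −0.07 (adjusted p = 0.892). Gabarap read 12.87, 12.94 and 12.88 against 13.08, 13.09 and 13.00, with a log2 change of 0.16 (adjusted p = 0.272).

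Map1lc3a, which encodes LC3A, was the ATG8 gene with a log2 fold change below 0. It read 8.64, 9.01 and 8.25 on the control arrays and 8.08, 8.32 and 8.09 on the Nedd4 siRNA arrays. The controls were widely spread and overlapped the other group, and the log2 fold change was −0.47 (SE 0.16, adjusted p = 0.0625). Without control replicate 3 it was −0.66 (adjusted p = 0.00709), and without control replicate 2 it was −0.28 (adjusted p = 0.2). Under several alternatives, Map1lc3b, Gabarapl1 and Map1lc3a did pass. They passed with array weights (adjusted p = 0.045, 0.0264 and 0.0176) and with a replicate block (adjusted p = 0.0487, 0.036 and 0.0163). With a mean over each gene's probesets they passed as well (adjusted p = 0.0465, 0.0484 and 0.0385). Several of the ATG8 genes and Atg4a and Bnip3l can have near-identical copies elsewhere in the genome, and which copy each probeset reads was not examined here.

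The cargo receptors and adaptors were higher at 4 of 6 measured genes and lower at none, and by the methods' test Sqstm1 alone passed. All 6 had a mean of at least 8, a level at which 18.7% of all genes were higher by limma. Sqstm1 encodes p62, which binds ubiquitinated proteins and ATG8. It read 12.03, 12.17 and 11.91 on the control arrays and 12.58, 12.61 and 12.53 on the Nedd4 siRNA arrays. This was a 1.45-fold rise, with a log2 change of 0.54 (SE 0.093, adjusted p = 0.0015) and no overlap. Tax1bp1, another ubiquitin-binding receptor, read 9.85, 9.78 and 9.50 against 10.58, 10.30 and 10.51. It was 1.69-fold higher, with a log2 change of 0.75 (SE 0.11, adjusted p = 0.000546), although it did not pass by the methods' test (adjusted p = 0.0583). Calcoco1, a receptor for parts of the endoplasmic reticulum and Golgi, read 10.13, 10.19 and 10.35 against 10.73, 10.65 and 10.52. The log2 fold change of Calcoco1 was 0.41 (SE 0.096, adjusted p = 0.0103) without overlap, and 0.36 (adjusted p = 0.0726) without Nedd4 siRNA replicate 1.

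Wdfy3 encodes ALFY, a large adaptor for protein aggregates, and read 9.38, 9.53 and 9.36 against 9.90, 9.71 and 9.63. Its log2 fold change was 0.32 (SE 0.098, adjusted p = 0.0414), and a second probeset gave 0.44 (adjusted p = 0.00378). The first of these was lost without control replicate 1 or 3 and without Nedd4 siRNA replicate 1 or 2. Nbr1, a partner of p62, read 10.34, 10.45 and 10.38 against 10.63, 10.57 and 10.57. Each Nedd4 siRNA array of Nbr1 was above each control array, but the log2 fold change of 0.20 did not pass (adjusted p = 0.15). Bnip3l, a receptor for mitochondria, had a log2 change of −0.09 (adjusted p = 0.637) and of −0.15 (adjusted p = 0.328) in its second probeset. Epg5, which tethers autophagosomes to late endosomes and lysosomes, read 7.25, 7.31 and 7.28 against 7.75, 7.84 and 7.71. The arrays within each group were close together, and the log2 fold change of Epg5 was 0.49 (SE 0.085, adjusted p = 0.00156).

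**Figure D3:**
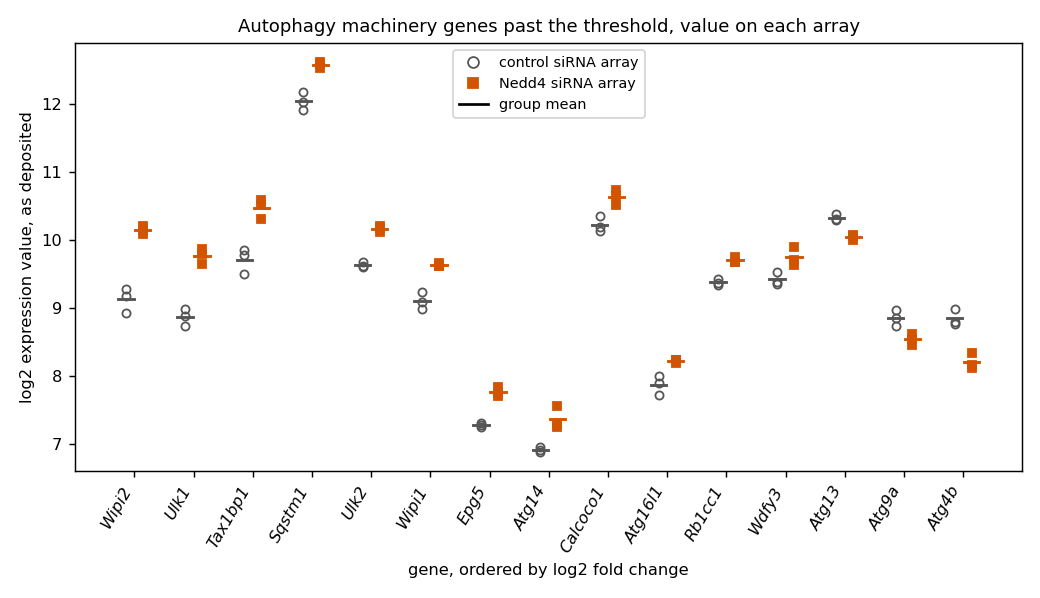
Deposited log2 expression value (vertical axis) on each control siRNA array (open circles) and each Nedd4 siRNA array (filled squares) for the 15 autophagy machinery genes past the threshold, ordered by log2 fold change, with lines for group means. Circles and squares do not overlap for any of the 15 genes, and the squares are lower only for Atg13, Atg9a and Atg4b; heights are not comparable between genes.

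The calls differed in how far they depended on the analysis. Ulk1, Ulk2, Wipi1, Wipi2, Sqstm1 and Atg4b passed under all 17 alternatives tried, which included leaving out each array in turn. Epg5 was lost only where a log2 fold change of at least 0.5 was also asked for, and Tax1bp1 only by the methods' test. Atg14, Atg16l1, Atg9a, Calcoco1 and Wdfy3 did not pass by the methods' test either, with adjusted p-values from 0.0861 for Atg14 to 0.159 for Wdfy3. Of the 12 higher genes, 6 rose by at least 0.5 on the log2 scale (Wipi2, Ulk1, Tax1bp1, Sqstm1, Ulk2 and Wipi1), and of the lower genes Atg4b alone did. These 7 genes come from 4 of the roles, the ULK1 complex, the PI3P readers, the cargo receptors and the ATG4 proteases.

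Promoters of the machinery genes were searched for the E-box CACGTG and for TCACGTGA, the core of the CLEAR element that TFEB and TFE3 bind and which contains the E-box. TFEB and TFE3 are transcription factors of lysosomal and autophagy genes. Both motifs read the same on either strand. Windows ran from 250 bases before to 50 after each transcription start in RefSeq (GRCm38.p6) and were held for 31 of the 39 genes. Of these, 4 had an E-box (12.9%), beside 8.09% of all 27025 genes with a window. The pieces that hold them are shown, 5′ to 3′ on the strand of the gene, with the E-box in capitals.
Atg14: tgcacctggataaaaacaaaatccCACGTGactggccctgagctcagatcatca
Atg3: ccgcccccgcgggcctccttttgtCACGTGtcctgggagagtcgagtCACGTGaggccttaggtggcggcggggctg
Atg5: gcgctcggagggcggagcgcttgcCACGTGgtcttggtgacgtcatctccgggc
Atg7: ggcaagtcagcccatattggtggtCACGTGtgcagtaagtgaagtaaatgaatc
The Atg14 piece is chr14:47568406-47568459 (minus strand), with the E-box beginning 1 base before the start. The Atg3 piece is chr16:45158711-45158787 (plus strand), with E-boxes beginning 94 and 71 bases before the start. The Atg5 piece is chr10:44268301-44268354 (plus strand), beginning its E-box 14 bases before the start, and the Atg7 piece is chr6:114670940-114670993 (plus strand), with the E-box 132 bases before. Atg14 was the only 1 of these 4 genes that passed the test, and differences between the 4 genes were not tested. The core TCACGTGA was held by Atg3 alone of the 31 genes (3.23%), beside 1.12% of all genes. Ulk1, Wipi2 and the other changed genes with a window had neither string in it, which says only that these letters are not in these windows.

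Other genes of the pathway were read from a list of regulators, membrane sources, selective receptors, fusion factors and phosphatases. Of the 69 measured, 24 changed (34.8%), 17 higher and 7 lower, beside 18.7% of all genes. Their median log2 fold change was 0.097, beside −0.017 over all genes and 0.043 over genes with a mean of at least 8. Of the 59 with a mean of at least 8, 22 changed (37.3%), a share near the 35.4% of all genes at that level. Of these 59, 25.4% were higher and 11.9% lower, against 18.7% and 16.7% of all genes at that level. In fusion with the lysosome, 4 of 14 genes were higher and 3 lower. Of the 11 of these with a mean of at least 8, 54.5% changed, against the same 35.4%. Snap29 and Stx17 encode SNARE proteins that join the autophagosome to the lysosome, and both fell. Snap29 read 9.82, 9.98 and 10.02 on the control arrays and 8.88, 8.76 and 8.83 after Nedd4 siRNA, with a log2 change of −1.12 (SE 0.091, adjusted p = 7.25e-06). Stx17 read 9.03, 9.06 and 9.02 against 8.43, 8.42 and 8.34, with one of −0.64 (SE 0.083, adjusted p = 0.000205). Ykt6, a further SNARE of this step, rose, at 8.50, 8.72 and 8.41 against 9.72, 9.58 and 9.75 (log2 fold change 1.14, SE 0.10, adjusted p = 1.31e-05). No arrays overlapped for these 3 genes. Tecpr1, a tether at the lysosome, was higher by 0.47 on the log2 scale (adjusted p = 0.00263), from a control mean of 6.15, below the array medians.

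The 2 WD-repeat relatives of the WIPI genes moved in opposite directions. Wdr45b (WIPI3) read 9.38, 9.43 and 9.20 on the control arrays and 7.96, 8.04 and 8.08 on the Nedd4 siRNA arrays. It fell 2.48-fold, a log2 change of −1.31 (SE 0.093, adjusted p = 2.78e-06). Wdr45 (WIPI4) read 9.02, 9.38 and 9.35 against 10.09, 10.09 and 9.97, with a log2 change of 0.80 (SE 0.11, adjusted p = 0.000251). The PI3P readers therefore stood higher at Wipi1, Wipi2 and Wdr45 and lower at Wdr45b. Vmp1, a lipid scramblase of the endoplasmic reticulum, was higher by 0.45 (adjusted p = 0.00539), and not past by the methods' test (adjusted p = 0.0635).

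**Figure D4:**
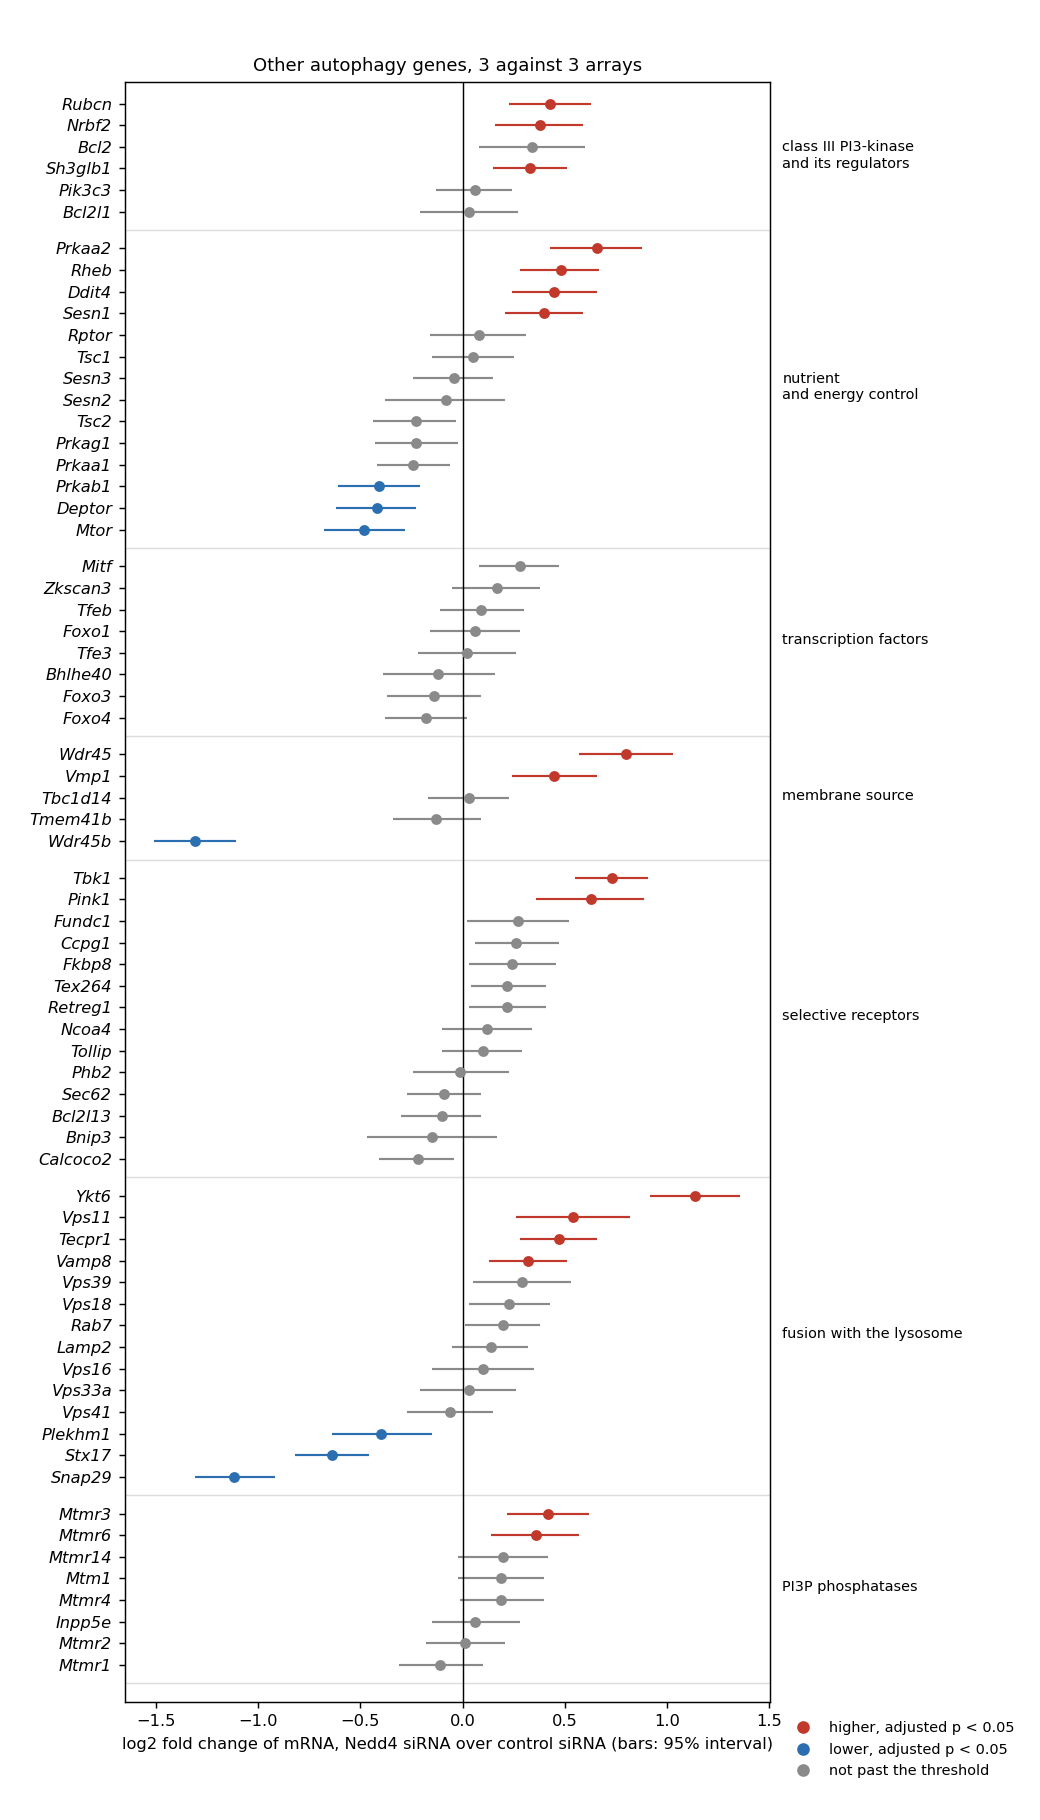
Log2 fold change (horizontal axis, Nedd4 siRNA over control siRNA, 3 arrays per group) of 69 other autophagy genes grouped by role, with bars for the 95% interval from limma and colours for the call. Wdr45b at −1.31 and Snap29 at −1.12 stand farthest left, Ykt6 at 1.14 farthest right, and no transcription factor is coloured.

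Among 14 genes of nutrient and energy control, 4 were higher and 3 lower. Of the 13 of these with a mean of at least 8, 46.2% changed, against 35.4% of all genes at that level. Mtor, the kinase that holds the ULK1 complex inactive when nutrients are present, read 8.60, 8.65 and 8.55 against 8.09, 8.25 and 8.01, a log2 change of −0.48 (SE 0.092, adjusted p = 0.00291). Rheb, which activates mTORC1, read 10.72, 10.67 and 10.54 against 11.13, 11.07 and 11.16, a log2 change of 0.48 (SE 0.088, adjusted p = 0.0024). The kinase and its activator thus stood in opposite directions, each without overlap. Prkaa2, a catalytic subunit of the energy sensor AMPK, was higher by 0.66 (adjusted p = 0.000713), from a level below the array medians in control cells. Ddit4, an inhibitor of mTORC1 signalling, was higher by 0.45 (adjusted p = 0.00544), and not past by the methods' test (adjusted p = 0.0644).

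The transcription factor genes of the pathway did not pass. None of the 8 passed by limma or by the methods' test. An unadjusted p below 0.05 from limma was seen for 1, beside 5669 of all 19933 genes. This was Mitf, a relative of TFEB, at 0.28 (adjusted p = 0.0572). Mitf passed under some alternatives, such as median centring (adjusted p = 0.0465), while the mean of its 2 probesets gave 0.15 (adjusted p = 0.311). Foxo4 was the next nearest, at −0.18 (adjusted p = 0.269). Tfeb and Tfe3 had log2 fold changes of 0.09 (95% interval −0.11 to 0.30) and 0.02 (95% interval −0.22 to 0.26). Of 14 selective receptors and their kinases, 2 were higher. Of the 13 of these with a mean of at least 8, 15.4% were higher, near the 18.7% of all genes at that level. The 2 higher genes were Tbk1, a kinase that phosphorylates cargo receptors, at 0.73 (adjusted p = 7.42e-05), and Pink1, which marks damaged mitochondria, at 0.63 (adjusted p = 0.00321, or 0.114 by the methods' test).

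Regulators of the class III PI3-kinase were higher at 3 of 6 genes. They were Rubcn, a negative regulator, at 0.43 (adjusted p = 0.0062), Nrbf2, a subunit of the ATG14 complex, at 0.38 (adjusted p = 0.0185), and Sh3glb1, a Beclin 1 partner through UVRAG, at 0.33 (adjusted p = 0.0166). These 3 genes were 60% of the 5 with a mean of at least 8, against 18.7% of all genes at that level. By the methods' test only Sh3glb1 passed (adjusted p = 0.0265), and without Nedd4 siRNA replicate 1 or 3 only Rubcn did (adjusted p = 0.0292 and 0.0147). The catalytic subunit gene Pik3c3 had a log2 fold change of 0.06 (95% interval −0.13 to 0.24). The phosphatases that remove PI3P were higher at 2 of 8 genes, Mtmr3 at 0.42 (adjusted p = 0.0067) and Mtmr6 at 0.36 (adjusted p = 0.0257). Neither passed by the methods' test (adjusted p = 0.0553 and 0.134) or without Nedd4 siRNA replicate 1 (adjusted p = 0.0513 and 0.151). Of the 7 phosphatase genes with a mean of at least 8, these 2 were 28.6%, against the 18.7% of all genes at that level that were higher.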

How the data were processed

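RNA of NCU10K cells was measured on 6 arrays, 3 per siRNA. The authors used Partek Genomics Suite, which the submitters' processing notes give as version 6.5, for RMA background correction, a correction for GC content and a mean over the probes of each probeset. They deposited log2 expression values for 28440 probesets. The genome build is not given in the sources used here, and no normalization was added. Of the probesets, 21780 carry 1 gene symbol in the platform annotation, 1618 several and 5042 none.

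Groups came from the labels. The comparison used limma 3.58.1 in R 4.3.3 (lmFit and eBayes, default settings, no covariate), with p-values adjusted over all probesets (Benjamini-Hochberg) and called at 0.05. Intervals are 95% intervals of that fit. The methods name an ANOVA, which was run with the siRNA as its 1 factor as an alternative and is called the methods' test. The fit was first tested on simulated data. Precision is limited by the number of arrays, and differences of dim probesets are compressed.

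The members and gene lists were chosen with earlier results of these data known. Members past the threshold were named with all values. Of the others, the rule named the 2 with the smallest p, the highest and lowest mean, and those without overlap in each role, and of other autophagy genes up to 4 passing with the smallest p per role (2 where none passed). Vps11, Vamp8, Plekhm1, Prkab1, Deptor and Sesn1 also passed. Tfeb, Tfe3 and Pik3c3 were added to the named genes once their values were known. The alternatives were the methods' test, array weights, the trend and robust options of eBayes, a replicate block, median centring, quantile normalization, a fit without the dimmest 25% or 50% of probesets, a mean over each gene's probesets, thresholds of 0.01 on the adjusted p and 0.5 on the log2 scale, and leaving out each array in turn. Python 3.11.15, NumPy 2.4.6 and pandas 2.3.3 were used for counts, and Matplotlib 3.10.9 for figures. Off-target effects of the siRNA were not analysed here.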

Additional observations from a re-analysis of the deposited data

How the results depend on the processing

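Across 51 named genes and 17 alternatives no log2 fold change turned its sign, but many of the alternatives could not turn it. The methods' test, the trend and robust options, the replicate block, the fits without dim probesets and the stricter thresholds keep the main log2 fold change. Of 865 values, 756 kept their side of the threshold, 77 went from past to not past and 32 from not past to past. The stricter thresholds could only lose calls, so these counts are no measure of stability. The median log2 fold change of the 39 machinery genes lay between 0.152 and 0.223. The machinery genes that changed, 15 in the main comparison, numbered 9 at an adjusted p under 0.01, 7 with a log2 fold change of at least 0.5, 10 by the methods' test and 21 with array weights, and 8 to 14 with one array left out. The higher genes, 12 there, numbered 6 with a log2 fold change of at least 0.5 and 7 to 13 with one array left out. The lower genes, 3 there, numbered 5 with quantile normalization, 1 with median centring, 1 at an adjusted p under 0.01, 1 with a log2 fold change of at least 0.5, and 1 to 3 with one array left out. The other autophagy genes that changed, 24 there, numbered 14 by the methods' test and 9 with a log2 fold change of at least 0.5. Over all genes, 3737 changed by limma and 1804 by the methods' test, 2362 at an adjusted p under 0.01, 1771 with a log2 fold change of at least 0.5, and 2418 without Nedd4 siRNA replicate 1; the cause of these differences between tests was not tested. Whether equal replicate numbers pair the samples could not be told, because the same-numbered arrays differed in this. Deviations of same-numbered arrays correlated at −0.012, 0.472 and −0.013, and control replicate 1 correlated best with Nedd4 siRNA replicate 3 (0.415). With the replicate block 18 machinery genes changed, 14 higher and 4 lower, and 25 of the other autophagy genes. Calls rose over all genes as well, from 18.7% in the main comparison to 20.1% with the block and 23.2% with array weights. Depth is set by signal over background here, and Atg9b, Atg16l2 and Atg4d lay near the array medians, where differences are compressed.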
